A study of Mus musculus with 11 samples.

Results

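Hepatic gene expression was compared between obese mice that expressed the FXR mutant FXR-K217R (3 arrays) and obese mice that expressed wild-type FXR, FXR-WT (3 arrays). These 6 arrays were taken by their labels from the 11 Illumina BeadChip arrays of the study, and their differences are described across all 15469 genes tested. The titles mark the obese arrays HFD and the lean arrays ND, and give no diet composition. All mice were male C57BL/6J, 8 weeks old per the labels; the proteins were expressed from adenovirus, and 1 week after infection every mouse received the FXR agonist GW4064 at 30 mg/kg in corn oil overnight. The remaining arrays, used for the shared estimate of the spread and for 1 comparison, came from lean mice that expressed FXR-K217Q (3 arrays) or FXR-WT (2 arrays) under the same treatment. The labels name no deletion of the host's own FXR and no untreated or uninfected group. Nor do they state that each replicate is an animal of its own; p-values here therefore reflect only how these arrays spread, which may be technical.

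FXR, the product of Nr1h4, is a nuclear receptor for bile acids. Bound to its ligand it induces the repressor Nr0b2 (SHP) and the bile salt export pump Abcb11, and it lowers the bile acid synthesis enzymes Cyp7a1 and Cyp8b1. It also restrains inflammatory genes in liver. The mutated lysine is a site of acetylation. Arginine in its place keeps the charge but cannot be acetylated, whereas glutamine, as in FXR-K217Q, is often used to mimic the acetylated residue. The series title names a switch between acetylation and SUMO modification of FXR and hepatic inflammation in obesity as the question.

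Between 18656 and 19500 probes were detected on each of the 6 obese arrays. Hepatocyte genes marked the tissue as labelled: 14 of 16 listed genes were tested and 13 were detected on all 6 arrays. A whole-liver sample also holds RNA of blood and of resident non-parenchymal cells, and fewer cells of a type cannot be told apart from less RNA per cell. One FXR-WT array and one FXR-K217R array lay apart. FXR-WT replicate 1 held the highest score on the first principal component of the 6 arrays (38.1% of the variance), with 345 genes more than 1 log2 unit from the mean of the other FXR-WT arrays. FXR-K217R replicate 1 held the highest score on the second (19.8%), with 165 such genes against its own group. The next most such genes were on FXR-K217R replicate 2, with 140 and the lowest score on the second component, and on FXR-WT replicate 3, with 127. Values without FXR-WT replicate 1, FXR-K217R replicate 1 or both are given beside the results they moved most.

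At a false discovery rate of 5% (limma, adjusted over all 15469 genes), 6 genes fell in FXR-K217R livers and 0 rose, which is 0.0388% of the genes in either direction and 0.0388% for those lower. All 6 genes are made in neutrophils or their precursors: the granule proteins Ltf, Mpo, Camp and Ngp and the calcium-binding pair S100a8 and S100a9. Values are normalized log2 intensities of 1 probe per gene, and differences are FXR-K217R minus FXR-WT means. The median difference over all genes was −0.00, with 48.8% of genes positive. At an unadjusted p under 0.05, 325 genes were higher (2.10%) and 357 lower (2.31%), 682 in all, against 773 expected at this threshold if no gene differed. On 666 genes (4.31%) every FXR-K217R array lay above every FXR-WT array, and on 858 (5.55%) every one lay below. Most differences were small: the 10th percentile was −0.26 and the 90th 0.25, while 18 genes exceeded 1 and 38 were under −1.

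**Figure D1:**
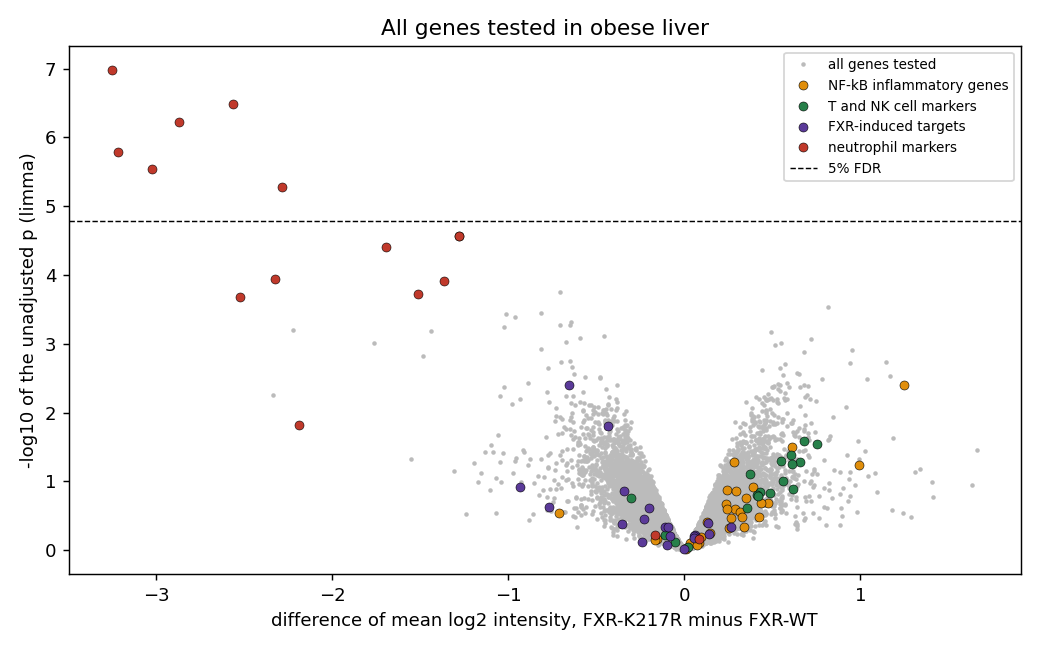
Each point is 1 of 15469 genes, with the difference of mean log2 intensity (FXR-K217R minus FXR-WT, 3 arrays each) on the horizontal axis and −log10 of the unadjusted limma p on the vertical axis. The 6 points above the dashed 5% line are neutrophil genes with differences between −3.25 and −2.29, and no gene of the other coloured lists lies above it; Mmp9, which 2 of the lists hold, is drawn as a neutrophil gene.

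The promoters of these genes are shown because the genes moved together. Each line holds the 150 bases before the transcription start from RefSeq (GRCm38.p6), 5′ to 3′ on the gene's strand. Capitals mark 2 motifs of myeloid factors on either strand, the C/EBP-type TTGCNNAA and the PU.1-type core GAGGAA, which do not overlap here.
Ltf, chr9:111019142-111019291, plus strand: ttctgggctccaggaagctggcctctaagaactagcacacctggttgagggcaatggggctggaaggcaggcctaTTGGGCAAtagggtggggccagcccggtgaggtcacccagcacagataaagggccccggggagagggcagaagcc
Ngp, chr9:110419658-110419807, plus strand: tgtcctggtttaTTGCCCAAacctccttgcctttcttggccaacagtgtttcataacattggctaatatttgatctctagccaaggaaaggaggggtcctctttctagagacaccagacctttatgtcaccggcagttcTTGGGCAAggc
S100a8, chr3:90668921-90669070, plus strand: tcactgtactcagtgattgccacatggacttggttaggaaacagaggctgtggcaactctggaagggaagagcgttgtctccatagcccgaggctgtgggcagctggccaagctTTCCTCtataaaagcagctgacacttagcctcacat
S100a9, chr3:90695722-90695871, minus strand: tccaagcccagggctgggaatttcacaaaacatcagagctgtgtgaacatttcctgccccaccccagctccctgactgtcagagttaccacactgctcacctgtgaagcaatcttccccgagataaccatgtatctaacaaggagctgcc
The C/EBP-type motif matched in 2 of the 6 promoters, Ltf and Ngp, and in 5.46% of all 32851 promoters. The PU.1-type core matched in S100a8 and in 14.5% of all. Neither motif matched in this window of S100a9, Mpo or Camp. A match describes the letters only.

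Ltf encodes lactoferrin, the iron-binding protein of secondary granules. It read 6.09, 6.61 and 5.95 on the FXR-K217R arrays, against 9.10, 9.21 and 10.08 on the FXR-WT arrays. The groups were separated by more than 2 log2 units, and the means differed by −3.25 ± 0.26 (SE), or 9.51-fold lower in FXR-K217R, with a limma adjusted p of 0.00162. Camp, the cathelicidin precursor of the same granules, read 5.37, 6.26 and 5.21 with FXR-K217R and 8.05, 8.69 and 9.18 with FXR-WT. Its difference was −3.02 ± 0.34 (limma adjusted p = 0.00885), and it was detected on 2 of 3 FXR-K217R arrays. Ngp, neutrophilic granule protein, is related to the cathelicidins. FXR-K217R arrays held 4.87, 5.85 and 5.03, of which 1 was a detected value, and FXR-WT arrays 7.89, 7.88 and 8.59. The difference was −2.87 ± 0.27 (limma adjusted p = 0.00307). Mpo, myeloperoxidase of the primary granules, read 5.28, 4.71 and 5.99 with FXR-K217R and 8.74, 9.02 and 7.87 with FXR-WT, a difference of −3.22 ± 0.34 (limma adjusted p = 0.00632). Mpo was detected on 2 of 3 FXR-K217R arrays, and its other probes gave −1.07 and −3.02.

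S100a9 and S100a8 form calprotectin, the main cytosolic protein of neutrophils, which monocytes also make. S100a9 read 8.90, 9.42 and 8.80 in FXR-K217R livers, against 11.36, 11.49 and 11.96 in FXR-WT livers. It differed by −2.56 ± 0.23 (limma adjusted p = 0.00253). S100a8 read 10.52, 10.73 and 9.71 in FXR-K217R livers, against 12.60, 12.40 and 12.82 in FXR-WT livers. The groups did not overlap, and the difference was −2.29 ± 0.27 (limma adjusted p = 0.0135). FXR-WT replicate 1 was the lowest array of its group for Ltf, Camp and S100a9 and the middle one for Ngp, Mpo and S100a8. With no background correction all 6 passed with smaller differences, −1.58 for Camp and −1.61 for Mpo, for example. Without FXR-WT replicate 1, 5 of the 6 passed, all but S100a8. Without FXR-K217R replicate 1 only Ltf, Ngp and S100a9 passed. S100a8 also lost its call without FXR-WT replicate 2 or 3, and Camp without FXR-K217R replicate 3 or FXR-WT replicate 2.

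**Figure D2:**
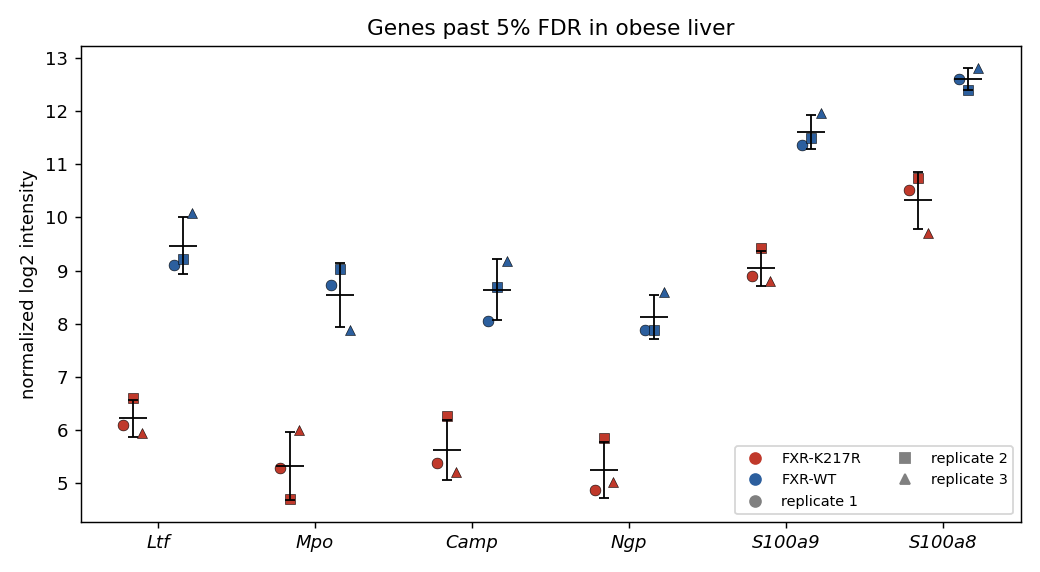
Normalized log2 intensity of the 6 genes past 5% FDR on each obese array, FXR-K217R in red and FXR-WT in blue, with replicates by symbol; bars are the group mean ± SD (n = 3). Every FXR-K217R array lies below every FXR-WT array for each gene, with means of 6.22 and 9.46 for Ltf.

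Of the 19 listed neutrophil markers 15 were tested. Of these, 14 differences were negative and 13 had every FXR-K217R array below every FXR-WT array, against 5.55% of all genes. The list median was −2.29 (−1.37 with no background correction). The list was chosen with earlier results of these data known and holds the 6 called genes, so these counts are not a separate test. Mmp9, the gelatinase of tertiary granules, came closest to the threshold. It read 5.81, 6.21 and 5.95 with FXR-K217R and 7.28, 7.16 and 7.37 with FXR-WT (−1.28 ± 0.18, limma adjusted p = 0.0602). Cd177, a neutrophil surface glycoprotein, was detected on 0 of 3 FXR-K217R arrays and on all FXR-WT arrays. It was at least 2.90-fold lower in FXR-K217R (limma adjusted p = 0.0761). Ctsg, cathepsin G of primary granules, was likewise detected on 0 of 3 FXR-K217R arrays and was at least 2.14-fold lower (limma adjusted p = 0.239). The elastase gene, Ela2 on the array (now Elane), differed by −1.37, and Retnlg, a resistin-like neutrophil protein, by −2.32. Prtn3, proteinase 3, spread widely, with 5.54, 8.55 and 7.03 in FXR-K217R livers and 9.77, 9.29 and 8.63 in FXR-WT livers. The lowest Prtn3 value was on FXR-K217R replicate 1.

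The groups overlapped for 2 genes of the list, Lcn2 and Csf3r. Lcn2, lipocalin 2, is also made by hepatocytes in the acute phase, and it read 14.97, 15.02 and 14.11 with FXR-K217R and 14.95, 15.06 and 14.59 with FXR-WT. The means differed by −0.17 ± 0.31, and all arrays read near the top of the scale. Csf3r, the receptor of the neutrophil growth factor G-CSF, read 7.85, 8.22 and 7.86 with FXR-K217R and 7.60, 8.11 and 7.97 with FXR-WT, a difference of 0.09. Chi3l3 (now Chil3, Ym1), made by myeloid precursors and alternatively activated macrophages, differed by −2.52. Its near-identical copy Chi3l4 (now Chil4) differed by −2.22, and a probe may read both. Ifitm6, an interferon-induced transmembrane gene of myeloid cells, had 6.92, 7.14 and 6.77 in FXR-K217R livers, against 8.91, 7.94 and 8.29 in FXR-WT livers. The groups were separate, but the limma adjusted p was 0.435.

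Genes of platelets and their precursors leaned the same way without passing the threshold. Ppbp, the platelet basic protein chemokine, read 6.70, 7.35 and 6.60 with FXR-K217R and 7.77, 7.79 and 8.13 with FXR-WT (−1.01 ± 0.20, limma adjusted p = 0.36). It passed only when FXR-K217R replicate 2 was left out. Nfe2, a transcription factor of megakaryocytes and red cell precursors, read 5.50, 5.56 and 5.60 with FXR-K217R and 6.65, 6.44 and 6.64 with FXR-WT. F13a1, coagulation factor XIII A of platelets and macrophages, differed by −1.76 and was detected on 2 of 3 FXR-K217R arrays. In a list of 18 platelet and megakaryocyte genes, drawn up after these values were seen, 14 were tested, 12 were negative, where 48.8% of all genes were positive, and the median was −0.34 (−0.10 with no background correction). The Ppbp, Nfe2 and F13a1 values were themselves the reason for the list. Erythroid markers had a median of 0.05 over 10 genes, and Alas2, the haem synthesis enzyme of red cell precursors, differed by 0.15.

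No gene outside the neutrophil list passed the threshold; the smallest adjusted p there was 0.239. The differences that follow are therefore values and not calls. Among genes detected on all 6 arrays with separate groups, the largest negative difference was in Akr1b7, an aldo-keto reductase that FXR agonists induce in mouse liver and intestine. It read 7.03, 8.73 and 8.15 with FXR-K217R, against 12.16, 9.41 and 9.35 with FXR-WT. All 3 FXR-K217R arrays were below all FXR-WT arrays, and FXR-WT replicate 1 stood alone at the top; the difference was −2.34 ± 0.67 (limma adjusted p = 0.993) and −1.41 without that array. H19, an imprinted noncoding RNA that is largely silent in adult hepatocytes, read 7.20, 7.44 and 7.47 in FXR-K217R livers and 9.14, 7.98 and 8.71 in FXR-WT livers. Esm1, an endothelial proteoglycan, differed by −1.10, Hapln4, a hyaluronan link protein, by −1.15, and Cpne8, a copine, by −1.04. Prhoxnb (now Urad, an enzyme of urate breakdown) differed by −1.06. In each of these 4 genes FXR-WT replicate 1 had the highest value of the 6 arrays. Without it Esm1 differed by −0.88, Hapln4 by −0.63, Cpne8 by −0.66 and Prhoxnb by −0.70. Esm1 was −0.66 without FXR-K217R replicate 1.

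The 8 largest positive differences with separate groups included 2 chemokines and a guanylate-binding protein that interferon gamma induces. Cxcl9, a chemokine that attracts T cells, read 13.39, 13.29 and 12.73 with FXR-K217R and 10.95, 12.32 and 12.38 with FXR-WT (1.25 ± 0.34, limma adjusted p = 0.96). Cxcl10, a related chemokine, read 9.55, 9.87 and 9.81 with FXR-K217R and 7.74, 9.18 and 9.32 with FXR-WT. Gbp2, the guanylate-binding protein, read 12.79, 12.95 and 12.36 with FXR-K217R and 10.69, 12.31 and 12.14 with FXR-WT. In all 3 genes FXR-WT replicate 1 was the lowest array by more than 1 log2 unit and the other FXR-WT arrays lay much closer to the FXR-K217R arrays. Without it the differences were 0.78 for Cxcl9, 0.49 for Cxcl10 and 0.48 for Gbp2. Ryr1, a calcium release channel, differed by 1.14, Acta1, skeletal muscle actin, by 0.99, and Col27a1, a fibrillar collagen, by 0.94. The other probes of Ryr1 gave 0.73, 0.17 and −0.19. Acta1 was highest on FXR-K217R replicate 1 and differed by 0.50 without it, while Col27a1 was lowest on FXR-WT replicate 1 and differed by 0.62 without that one. Cdca5 (sororin), which holds sister chromatids together, read 6.71, 6.52 and 6.90 with FXR-K217R and 5.94, 5.27 and 6.05 with FXR-WT. FXR-WT replicate 1 was not extreme here (0.95 ± 0.22, limma adjusted p = 0.569). Suv39h1, a histone H3 lysine methyltransferase, differed by 0.54, and Cdc7, a kinase that fires replication origins, by 0.64. Cacna1a, a calcium channel subunit, and Clec9a, a dendritic cell receptor, were among the positive genes of smallest unadjusted p but were detected on 0 of 3 FXR-WT arrays and stayed near background in both groups.

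**Figure D3:**
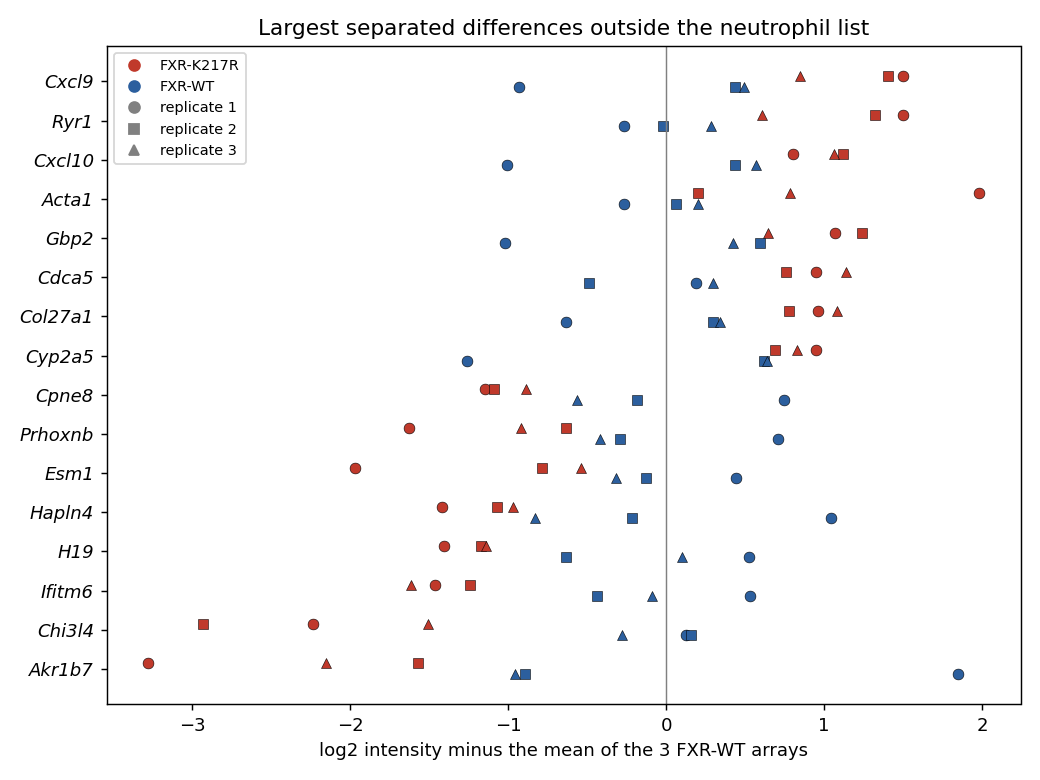
The 16 genes outside the neutrophil list with the largest differences among genes detected on all 6 arrays whose groups do not overlap, shown as log2 intensity minus the FXR-WT mean for each array (FXR-K217R red, FXR-WT blue). FXR-WT replicate 1 (blue circle) is more than 1 log2 unit from the mean of the other FXR-WT arrays in 8 of the 16 rows, for example 2.78 above it in Akr1b7.

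The receptor itself was measured first among its pathway genes. Nr1h4 read 12.53, 12.35 and 12.38 with FXR-K217R and 11.98, 12.09 and 12.30 with FXR-WT, higher by 0.30 ± 0.13 (limma adjusted p = 0.993). Every FXR-K217R array lay above every FXR-WT array, and the labels do not say whether the probe reads the viral transcript. Nr0b2, the FXR-induced repressor, was detected on 0 of 11 arrays and was not tested. Of 22 FXR-induced targets 20 were tested: 14 were negative, 0 passed the limma threshold and 2 were lower at an unadjusted p under 0.05, against 2.31% of all genes, with a median of −0.11. Those were Sdc1, the heparan sulphate proteoglycan syndecan 1, with 8.99, 8.85 and 9.15 in FXR-K217R livers and 10.06, 9.55 and 9.34 in FXR-WT livers, and Apoc2, the cofactor of lipoprotein lipase, with 11.73, 11.93 and 12.07 in FXR-K217R livers and 12.61, 12.28 and 12.13 in FXR-WT livers. Both genes were separate between the groups, and FXR-WT replicate 1 was the highest array for both. Without it Sdc1 differed by −0.45 and Apoc2 by −0.30, against −0.66 and −0.43 with it. The other probe of Sdc1 gave −0.25 and that of Apoc2 −0.40. Abcb11 overlapped, with 11.43, 11.22 and 11.24 in FXR-K217R livers and 12.12, 11.33 and 11.13 in FXR-WT livers. Ostb (now Slc51b), the beta subunit of the basolateral bile acid exporter, read 7.86, 7.42 and 7.31 with FXR-K217R and 9.93, 7.51 and 7.46 with FXR-WT. For both transporters the highest value was again on FXR-WT replicate 1. Without that array the median of the FXR-induced targets was −0.01.

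The main bile acid synthesis genes varied more among the FXR-WT arrays than between the groups. Cyp7a1, the rate-limiting enzyme, read 10.73, 11.82 and 12.22 with FXR-K217R, against 8.88, 12.16 and 11.81 with FXR-WT. Cyp8b1, which makes cholic acid, read 11.01, 12.46 and 13.10 with FXR-K217R, against 7.71, 12.39 and 12.75 with FXR-WT. FXR-WT replicate 1 was the lowest array for both, −3.11 and −4.86 relative to the mean of the other FXR-WT arrays, and FXR-K217R replicate 1 was the lowest of its group for both. On the same FXR-WT array Ostb was 2.44, Abcb11 0.90 and Akr1b7 2.78 relative to the other FXR-WT arrays. Within the FXR-WT group the array with the highest Ostb, Abcb11 and Akr1b7 had the lowest Cyp7a1 and Cyp8b1. For each of these 5 genes every FXR-K217R array lay nearer to the other FXR-WT arrays than to that one. Other listed genes did not all move this way. Relative to the other FXR-WT arrays, the transporter Abcg8 was −0.80 there and the synthesis enzyme Cyp39a1 was 1.32. The synthesis enzyme Cyp7b1 was −1.67, the same direction as Cyp7a1 and Cyp8b1. Relative to the FXR-WT mean, medians on that array were 0.21 for FXR-induced targets, −0.11 for bile acid synthesis and −0.11 for bile acid transporters. The clock genes Dbp and Arntl also set it apart: Dbp, a clock output factor, read 13.09, 12.71 and 13.27 with FXR-K217R and 10.74, 12.67 and 12.88 with FXR-WT. Arntl (BMAL1), whose rhythm runs opposite to Dbp, read 5.84, 6.10 and 5.74 with FXR-K217R and 7.49, 6.50 and 6.18 with FXR-WT. Without the array Dbp differed by 0.25 and Arntl by −0.45, against 0.93 and −0.83 with it. Nr1d1, a repressor of Arntl, was lowest on that array, at 5.97. The labels give no time of sacrifice, and its part in these values was not tested.

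**Figure D4:**
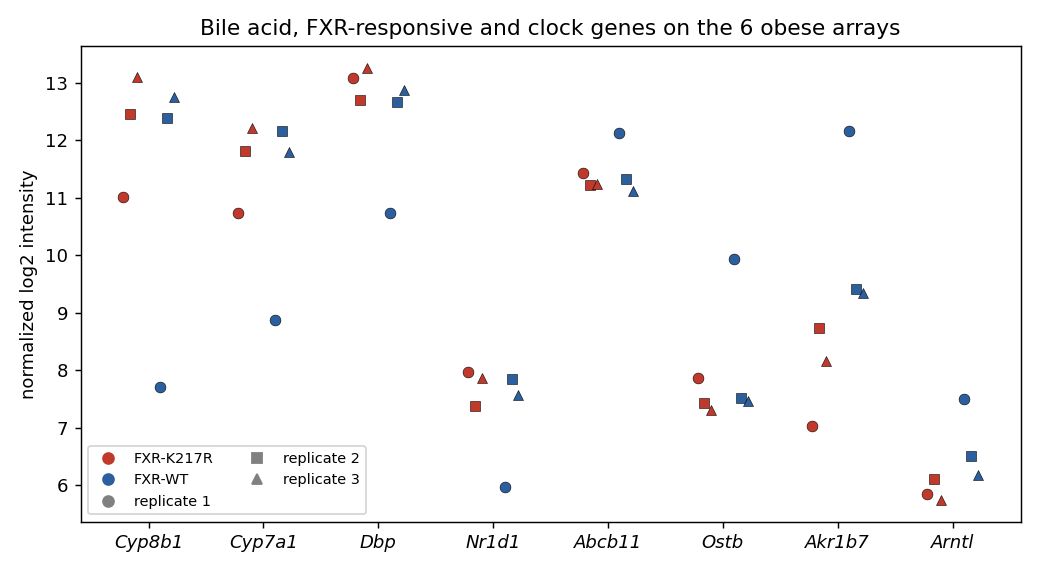
Normalized log2 intensity of 8 bile acid, FXR-responsive and clock genes on each obese array (FXR-K217R red, FXR-WT blue, replicates by symbol). FXR-WT replicate 1, the blue circle, is lowest for Cyp8b1 (7.71), Cyp7a1 (8.88), Dbp and Nr1d1 and highest for Abcb11, Ostb, Akr1b7 and Arntl, while the remaining arrays lie close together for Dbp, Nr1d1 and Ostb.

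Inflammatory genes were the subject of the study's title. Of 34 listed NF-kB genes 31 were tested and 27 differences were positive, with a median of 0.25 and 0 past the limma threshold; 2 were higher and 1, Mmp9, was lower at an unadjusted p under 0.05, against 2.10% and 2.31% of all genes. Tnf, the central inflammatory cytokine, read 6.07, 6.71 and 5.95 with FXR-K217R and 5.37, 5.82 and 5.72 with FXR-WT (0.61 ± 0.25). The groups were separate by a narrow margin. Il1b, interleukin 1 beta, read 7.41, 9.19 and 7.96 with FXR-K217R and 8.32, 8.52 and 8.19 with FXR-WT, and Ccl2, the monocyte chemoattractant, 7.36, 7.45 and 6.89 with FXR-K217R and 6.47, 7.08 and 6.73 with FXR-WT. Both overlapped. Without FXR-WT replicate 1 the list median was 0.06. The interferon list as a whole had a median of −0.02, with 13 of 28 positive: Gbp2 was high while Oas2, an antiviral nucleotide synthetase, differed by −0.50 and Stat2, a mediator of type I interferon signals, by −0.31. Without FXR-K217R replicate 1 the median was 0.22 and Oas2 differed by −0.18.

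Acute phase proteins, which hepatocytes secrete in inflammation, leaned lower: 16 of 20 were negative with a median of −0.30, and 0 passed the limma threshold. Apcs, serum amyloid P, read 9.64, 10.91 and 10.07 with FXR-K217R and 12.83, 11.58 and 10.86 with FXR-WT. Serpina3n, a protease inhibitor, read 12.98, 14.17 and 13.78 with FXR-K217R and 15.00, 14.76 and 13.92 with FXR-WT. In both genes FXR-WT replicate 1 was highest, FXR-K217R replicate 1 lowest, and the groups overlapped at their edges. Without both of those arrays the differences were −0.73 for Apcs and −0.37 for Serpina3n, against −1.55 and −0.92 with all 6. Saa1, the major acute phase amyloid, was near the top of the scale on all arrays (14.65, 14.99 and 15.05 with FXR-K217R, 14.97, 14.99 and 14.67 with FXR-WT). Saa3, the form that macrophages and fat cells make, had the opposite sign (1.03 ± 0.43). The list median was −0.11 without both arrays that lay apart. Complement genes had a median of −0.02, 12 of 24 positive.

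The lists of other immune cells had medians of either sign. T and NK cell markers were positive for 15 of 18 tested, with a median of 0.46. Cd6, a T cell surface receptor, read 7.44, 7.74 and 7.54 with FXR-K217R and 6.11, 7.04 and 7.31 with FXR-WT, and Cd3d, a chain of the T cell receptor complex, 9.11, 9.31 and 8.73 with FXR-K217R and 7.92, 8.54 and 8.87 with FXR-WT. The T and NK median was 0.16 when FXR-WT replicate 1 was left out and 0.10 when both arrays that lay apart were left out. MHC class II genes had a median of 0.41, 9 of 11 positive, and 0.04 without FXR-WT replicate 1. Their invariant chain Cd74 read 14.95, 14.76 and 14.49 with FXR-K217R and 13.91, 14.56 and 14.65 with FXR-WT. Monocyte and macrophage markers had a median of 0.13: Itgb2, the common leukocyte integrin chain, differed by 0.54 with separate groups, while Cmkbr2 (now Ccr2, the receptor for Ccl2) was not detected on any FXR-K217R array and was at least 1.16-fold lower in FXR-K217R. Of 11 Kupffer cell markers 4 were positive and 7 negative, from −1.13 to 0.17 with a median of −0.09, which was 0.16 without FXR-K217R replicate 1. Vsig4, a complement receptor of these resident macrophages, read 8.85, 10.84 and 10.09 with FXR-K217R and 11.86, 10.50 and 10.82 with FXR-WT, and Clec4f, a lectin specific to them in mice, 8.49, 10.54 and 10.02 with FXR-K217R and 11.08, 9.83 and 10.56 with FXR-WT. FXR-K217R replicate 1 was the lowest array for both, and Vsig4 differed by −1.13 with it and −0.60 without it, Clec4f by −0.81 and −0.21.

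That array also stood apart in matrix genes, which were named after their values were seen. Col1a1 and Col3a1, the main fibrillar collagens, were 1.59 and 1.75 relative to the mean of the other FXR-K217R arrays, while Marco, a macrophage scavenger receptor, was −2.35 and Pck1, the gluconeogenic enzyme, −2.03. Over both groups the stellate cell and matrix list had a median of 0.03, with 13 of 25 positive; it was −0.28 without FXR-K217R replicate 1 and −0.34 without both arrays that lay apart. Sinusoidal endothelial markers had a median of 0.07 and B and plasma cell markers of 0.09, with 6 of 11 positive; the second was −0.26 without both arrays. Sox9, a cholangiocyte transcription factor, differed by −0.71, and by −0.38 without FXR-WT replicate 1, its highest array.

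Metabolic lists held no gene past the limma threshold, and their medians lay between −0.09 and 0.21. De novo lipogenesis was positive for 13 of 17 genes (median 0.21, and 0.07 without both arrays that lay apart). Its members Fads1 and Fads2, the fatty acid desaturases, differed by 0.26 and 0.46, and Pklr, liver pyruvate kinase, by 0.53. Cholesterol biosynthesis was positive for 16 of 22 genes (median 0.14), led by Fdps, farnesyl diphosphate synthase, with 10.55, 11.22 and 11.13 in FXR-K217R livers and 10.32, 10.26 and 10.73 in FXR-WT livers. The Fdps groups overlapped, and its other probe gave 0.21. Dhcr7, a late enzyme of the pathway, was separate between the groups (0.40 ± 0.14). Its lowest array was FXR-WT replicate 1, and Dhcr7 differed by 0.25 without that array. Fatty acid oxidation had a median of 0.05 over 33 genes, and oxidative phosphorylation 0.01 over 36. Pck1 differed by −1.19, with overlapping groups; the difference was −0.51 without FXR-K217R replicate 1, its lowest array, and −0.13 without both arrays. Abca1, the cholesterol exporter, was detected on 0 of 3 FXR-K217R arrays and on all FXR-WT arrays, at least 1.19-fold lower in FXR-K217R and near background in both groups.

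Amino acid breakdown and the urea cycle were negative for 26 of 35 genes (median −0.09). Sds, serine dehydratase, read 10.96, 12.26 and 12.01 with FXR-K217R and 12.98, 12.28 and 12.41 with FXR-WT, and Cps1, the first enzyme of the urea cycle, 12.67, 13.06 and 13.26 with FXR-K217R and 14.02, 13.23 and 13.39 with FXR-WT. FXR-WT replicate 1 was the highest array for both and FXR-K217R replicate 1 the lowest. Sds differed by −0.82 with all 6 arrays and by −0.21 without these, and Cps1 by −0.55 and −0.15. The unfolded protein response was negative for 20 of 24 genes (median −0.21, and −0.04 without FXR-WT replicate 1). Its chaperones Pdia3 and Pdia6 were separate between the groups at −0.27 and −0.36. Cell cycle genes were positive for 21 of 25 (median 0.21, and 0.02 without both arrays that lay apart), with Kif11, a mitotic kinesin, at 0.62 and Mki67, a proliferation marker, at 0.40, which was 0.17 without FXR-K217R replicate 1. NRF2 targets had a median of 0.16, which was −0.09 without FXR-K217R replicate 1. Among cytochromes P450, Cyp2c70, which makes muricholic acids in mice, read 14.20, 14.34 and 14.24 with FXR-K217R and 14.91, 14.61 and 14.51 with FXR-WT, and the groups were separate (−0.41 ± 0.13). The 24 acetylation and SUMO genes listed included 21 that were tested, with a median of 0.01.

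**Figure D5:**
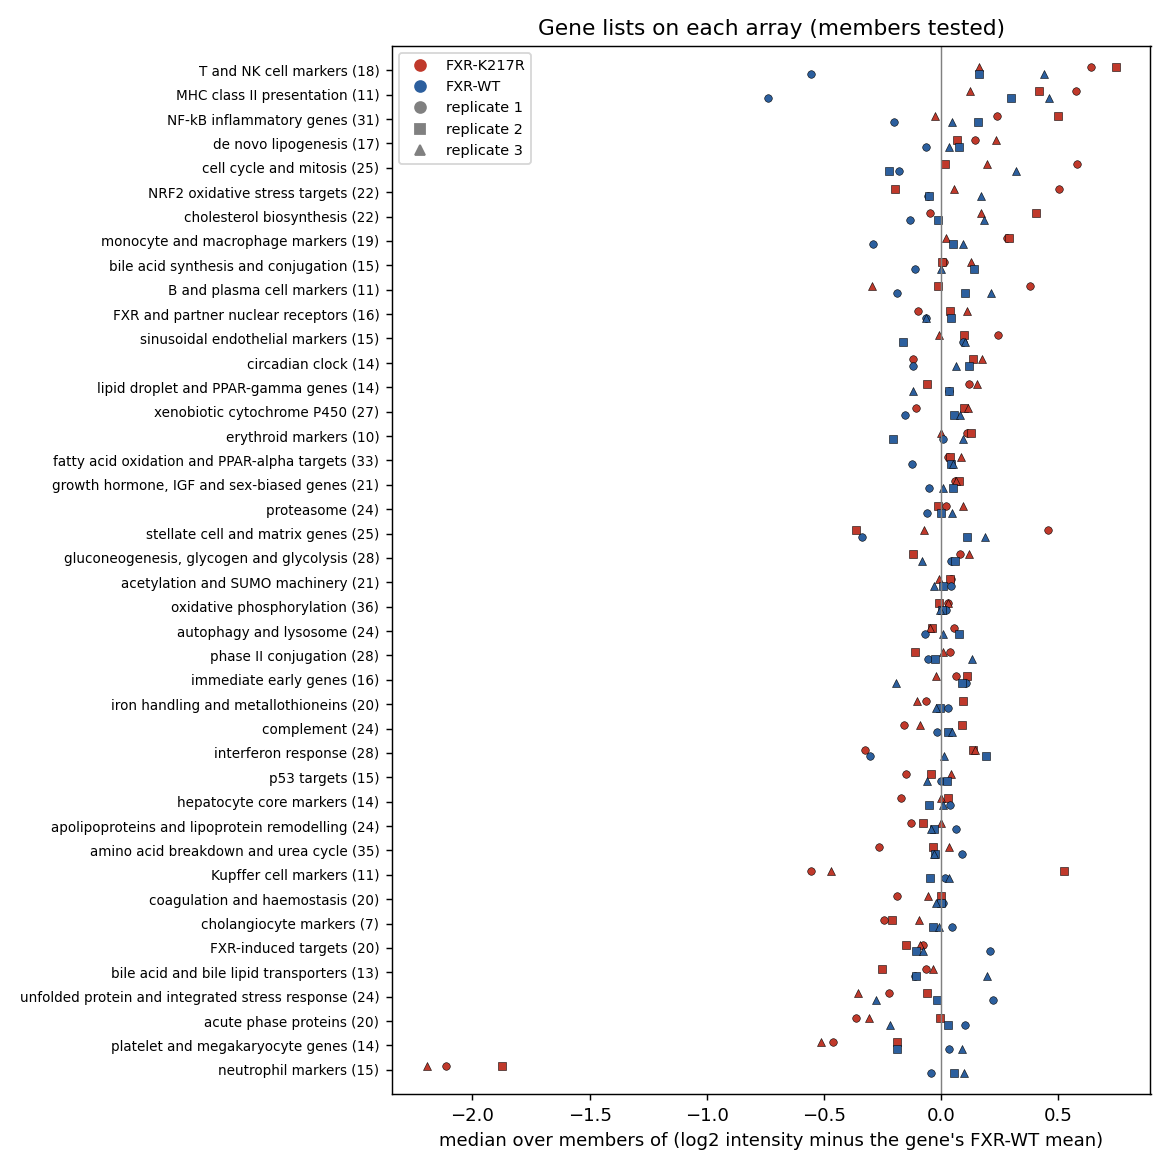
For each gene list (members tested in brackets), the median over members of log2 intensity minus the gene's FXR-WT mean on each array, FXR-K217R in red and FXR-WT in blue. Neutrophil markers lie between −2.20 and −1.87 on the FXR-K217R arrays. For MHC class II and T and NK cell markers FXR-WT replicate 1 lies alone at −0.74 and −0.56.

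The change with FXR-K217R in obese mice was set against that with FXR-K217Q in lean mice, 2 contrasts that share no array. The contrasts differ in both the mutant and obesity, whose parts cannot be told apart here. In the test of their difference 0 genes passed the limma threshold (0% of 15469), and the smallest adjusted p was 0.122, for S100a9. An unadjusted p under 0.05 was reached by 728 genes, against 773 expected if no gene differed. S100a9 differed by −2.56 in the obese pair and by 0.19 ± 0.25 in the lean pair, and S100a8 by −2.29 and −0.16. The granule genes Ltf and Mpo had negative differences in both pairs: Ltf differed by −3.25 with FXR-K217R and −2.26 with FXR-K217Q, where it was detected on 1 of 3 lean FXR-K217Q arrays. Mpo differed by −3.22 with FXR-K217R; it was detected on 0 of 3 lean FXR-K217Q arrays and was at least 3.38-fold lower there than in lean FXR-WT. The lean differences did not pass the limma threshold (adjusted p = 0.149 for both). Under an empirical Bayes prior with trend and robust settings, 1 gene, S100a9, passed the test of the difference (limma adjusted p = 0.0456). Against lean FXR-WT livers, obese FXR-WT livers had 1.99 log2 more Ltf, 2.37 more Ngp and 1.59 more S100a9, given here as values only. That contrast shares the obese FXR-WT arrays with the FXR-K217R contrast. Mean Ltf was 6.22 with obese FXR-K217R, 5.22 with lean FXR-K217Q, 9.46 with obese FXR-WT and 7.48 with lean FXR-WT. S100a9 was 9.04 with obese FXR-K217R, 10.20 with lean FXR-K217Q, 11.60 with obese FXR-WT and 10.01 with lean FXR-WT. The lean FXR-WT group has 2 arrays only.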

How the data were processed

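The authors deposited mean bead intensities for 45281 probes with a detection p-value per probe and array, per the file headers, and normalized log2 values, for which the submitters' processing notes name limma 3.12.3. Both deposited copies of the log2 values are identical. The bead summary software is not named there. From the intensities, neqc (limma 3.58.1, R 4.3.3, offset 16, background estimated from detection p-values) gave background-corrected, quantile-normalized log2 values, which differed from the deposited log2 values by 0.0271 at most. Probes detected at a p-value under 0.05 on at least 2 arrays were kept (21485), and the probe with the highest mean stands for each symbol (15469 genes; 4256 had several probes). One limma model (lmFit, eBayes) with 4 group means was fitted to all 11 arrays, and p-values were Benjamini-Hochberg adjusted over all genes. Each gene's group bound was taken from the lowest detected signal where no array of the group detected it. The number of arrays limits precision: 3 against 3 allows a permutation p of 0.1 at the smallest.

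The members and the 41 gene lists (775 distinct genes tested) were chosen with earlier results of these data known. Genes named were drawn from those past 5% FDR, the 12 of smallest p and the 8 of largest separate difference in each direction. They were also drawn from up to 4 per list of smallest p and a set of FXR, inflammatory, clock and liver genes. Not every gene under this rule is described, and Adamtsl2, Cndp2 and Cyp2a5, for example, are not. Any named outside this rule are said to be so or belong to the neutrophil list. The labels do not say whether replicate numbers pair the samples. Deviations of same-numbered arrays correlated at −0.10, 0.06 and −0.08, which are too few values to decide it. The alternatives are given in the closing section. The test was run on simulated data with independent noise for each gene and array. Those data held no array that lies apart, so they do not check the calls against such arrays.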

Additional observations from a re-analysis of the deposited data

How the results depend on the processing

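The 6 calls, all lower in FXR-K217R, were the same 6 genes with no detection filter, with no background correction and with the deposited normalized values. Without background correction the differences were smaller, for example −1.58 for Camp, and the neutrophil median was −1.37. There were 2 with only the obese arrays fitted (Ltf and S100a9) and 3 with probes detected on all 6 obese arrays (Ltf, S100a8 and S100a9). The replicate number as a block gave 3 (Ltf, Ngp and S100a9), although the labels state no pairing. Leaving out both arrays that lie apart, a setting chosen after seeing the data, gave 1, Ltf. Array weights gave 9. Single arrays left out in turn gave 3 to 10 calls, the fewest on dropping FXR-K217R replicate 1 and the most on dropping lean FXR-K217Q replicate 3. Ltf was called under each of these settings. The test of the difference from the lean FXR-K217Q change gave 1 call with trend and robust settings and 0 elsewhere, leave-one-out fits and the replicate block included. The chip as a block was not run because the files give no chip.

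Some uncalled differences (FXR-K217R minus FXR-WT) took either sign as single arrays were left out. Those that turned without FXR-WT replicate 1 ranged from −0.39 to 1.25 for Cyp7a1, −0.38 to 2.14 for Cyp8b1, −0.43 to 0.072 for Abcb11, −1.19 to 0.047 for Ostb and −0.062 to 0.19 for Csf3r. Il1b ranged from −0.66 to 0.23 (turned by FXR-K217R replicate 1), Lcn2 from −0.33 to 0.13 and Saa1 from −0.079 to 0.15. With both arrays that lie apart left out, Abcb11 was 0.00272, Clec4f 0.084, Il1b 0.22 and Nr1d1 −0.088. The medians of the neutrophil, T and NK, MHC class II (down to 0.004), NF-kB, acute phase, cell cycle, lipogenesis and cholesterol lists kept their sign under all settings run. The medians of 25 of 42 lists took the opposite sign under at least 1 setting: for example, without both arrays that lie apart the stellate list came to −0.34, B and plasma cell to −0.26, NRF2 to −0.12, and unfolded protein and amino acid to 0.01 each, and without FXR-K217R replicate 1 the interferon list came to 0.22 and the Kupffer list to 0.16. The cause of these shifts was not tested. Genes near background, such as Cacna1a, Abca1 and Cmkbr2, are limited by signal.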
